A study of Homo sapiens with 3 samples.

Results

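Polycomb repressive complex 1 (PRC1) was followed here through 9 of its genes, CBX2, CBX6, CBX7, CBX8, BMI1, RNF2, PCGF2, PHC1 and PHC2, chosen by name from the 22613 genes listed in each library. RNA sequencing compared LNCaP-abl prostate cancer cells 72 h after E2F1 was silenced with cells given control siRNA. The siE2F1 group is 1 library, from cells transfected with a pool of siRNAs against E2F1. The control group is 2 libraries, numbered 0 and 1, from cells transfected with control siRNAs. LNCaP-abl is an androgen-independent line derived from the LNCaP prostate cancer line, and every library came from cells grown without phenol red in charcoal-stripped serum and transfected with the same lipid reagent. The siE2F1 library has no replicate and a single siRNA pool was used, so effects of that library or of the siRNAs outside E2F1 cannot be told apart from silencing. Nothing in the labels says that the controls were separate cultures, so p-values measure only the spread between those libraries, which may be technical.

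PRC1 keeps genes silent by placing ubiquitin on histone H2A and by compacting nucleosomes. Its catalytic core is a RING1 or RNF2 ligase paired with a PCGF protein such as BMI1 or PCGF2. In canonical PRC1 a CBX protein reads the methyl mark on histone H3 that Polycomb repressive complex 2 (PRC2) leaves, and a PHC protein links complexes into larger assemblies. Each slot is filled by alternative paralogs, so cells differ in which version they carry. HOX genes and the INK4 cell cycle inhibitor locus are classical targets.

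The paralogs in a slot differed in level and in how far the siE2F1 library lay from the controls, so the bases before the starts of 2 pairs, CBX6 with CBX7 and PHC1 with PHC2, are shown with each CpG in capitals. They are RefSeq sequences of build GRCh38.p14, 5′ to 3′, taken from windows that run from 250 bases before a gene's start to 50 bases after it and cut to the bases that also precede the gene in GENCODE v29. For PHC1 and PHC2 the outer of 2 RefSeq windows is given.
CBX6 (chr22:38872315-38872466, minus strand): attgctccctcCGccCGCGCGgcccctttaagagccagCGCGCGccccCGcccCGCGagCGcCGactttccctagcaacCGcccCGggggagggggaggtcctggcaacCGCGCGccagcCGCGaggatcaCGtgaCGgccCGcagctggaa
CBX7 (chr22:39152681-39152930, minus strand): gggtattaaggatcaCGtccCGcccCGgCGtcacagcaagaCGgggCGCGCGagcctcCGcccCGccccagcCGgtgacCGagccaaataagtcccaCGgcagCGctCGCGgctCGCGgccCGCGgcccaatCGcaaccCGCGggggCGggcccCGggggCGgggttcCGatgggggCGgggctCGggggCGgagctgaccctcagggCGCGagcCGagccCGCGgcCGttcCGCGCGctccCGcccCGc
PHC1 (chr12:8913593-8913842, plus strand): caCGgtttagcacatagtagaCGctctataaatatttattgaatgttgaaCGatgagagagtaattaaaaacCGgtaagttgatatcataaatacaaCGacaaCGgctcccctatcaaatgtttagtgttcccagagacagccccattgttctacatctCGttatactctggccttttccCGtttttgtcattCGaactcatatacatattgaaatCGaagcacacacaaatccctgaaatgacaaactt
PHC2 (chr1:33431096-33431345, minus strand): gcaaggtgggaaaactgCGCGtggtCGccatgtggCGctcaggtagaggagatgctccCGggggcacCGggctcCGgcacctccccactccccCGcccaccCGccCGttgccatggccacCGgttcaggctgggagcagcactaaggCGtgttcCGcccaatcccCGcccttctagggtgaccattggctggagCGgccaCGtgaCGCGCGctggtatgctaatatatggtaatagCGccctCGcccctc

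The stretches hold 22 CpGs in 152 bases for CBX6, 41 in 250 bases for CBX7, 10 in 250 bases for PHC1 and 21 in 250 bases for PHC2. CBX6 and CBX7 both start in GC-rich sequence, with 76.7% and 77.7% GC over the whole windows and a CpG count 1.07 and 1.11 times that predicted from base composition. The outer PHC1 window had 37% GC, while its inner window had 72.3%. RefSeq windows were held for 7 of the 9 genes, 10 windows in all, and CBX2 and CBX8 are named only. E2F proteins are known to favour sites of the form TTTCCCGC, TTTGGCGC, TTTCGCGC or TTTGCCGC. None of these 4 words of 8 letters, searched on both strands with overlaps counted, was in the 10 windows, against 3.31% of 35116 RefSeq windows of the same length and 6.77% of the 8828 tested genes that have a window. That says only that these letters are not in these windows.

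E2F1 itself fell to 1.68 FPKM (fragments per transcript length and sequencing depth) in the siE2F1 library, against 10.6 FPKM in both controls. On the log2(FPKM + 1) scale, to which each fold change here refers, this was a log2 fold change of -2.12 (standard error 0.0605, limma adjusted p = 0.0311). Of 9 luminal prostate markers, 7 had a mean of at least 1 FPKM, and FOLH1, which encodes prostate-specific membrane antigen, was at 338.9 FPKM in siE2F1, against 317.6 and 338.9 FPKM in the controls. KLK3, the PSA gene, was below 1 FPKM in each library. Of 3 basal epithelial markers only 1, the keratin KRT14, was listed, at 0 FPKM in each library. Stromal and leukocyte markers, 4 listed, summed to 6.33 FPKM in siE2F1, against 7.21 and 6.88 FPKM in the controls. Without read counts, sequencing depth is unknown.

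The 9 PRC1 genes did not move as a group. CBX2 and RNF2 were lower in siE2F1 than in both controls. CBX6, PHC1, PHC2 and, by a small margin, BMI1 were higher, and CBX7, CBX8 and PCGF2 lay between the controls. The 9 log2 fold changes ran from -0.62 for CBX2 to 0.55 for PHC1, with a median of 0.03, beside 0.01 over all 14401 genes tested. Their median absolute log2 fold change was 0.12, beside 0.18 over all genes tested. The count below both controls was 2 of 9, where 39.7% of all genes tested lay below both. The count above both was 4 of 9, where the share of all genes tested was 43.7%.

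All 9 genes passed the filter of a mean of 1 FPKM and were tested. With limma, 0 of the 9 passed an adjusted p of 0.05, where 0.104% of all genes tested were called lower and 0.312% higher in siE2F1. On simulated data this fit called 0.1% of planted 2-fold changes, and the fit without small RNA genes called 88.3%. All planted changes were 2-fold or larger, beyond the fold change of any of the 9 genes, so recovery at their sizes is unknown. False calls made up 23% of calls in the fit of all genes and 7.7% without small RNA genes, both above what the threshold aims at. A gene that missed the threshold is thus not shown to be unchanged. At an unadjusted p of 0.05, 3 of the 9 passed (CBX2, CBX6 and PHC1), where 28.4% of all genes tested did. When 473 small RNA genes, whose FPKM is unsteady, were left out of the fit, the same 3 genes passed at an adjusted p of 0.05. That fit called CBX2 lower, where 6.36% of its 13928 genes were called lower, and CBX6 and PHC1 higher, where 4.17% were called higher. The share at the unadjusted p is near its background, and with 9 genes counts of 1 and 2 say little against these percentages.

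**Figure D1:**
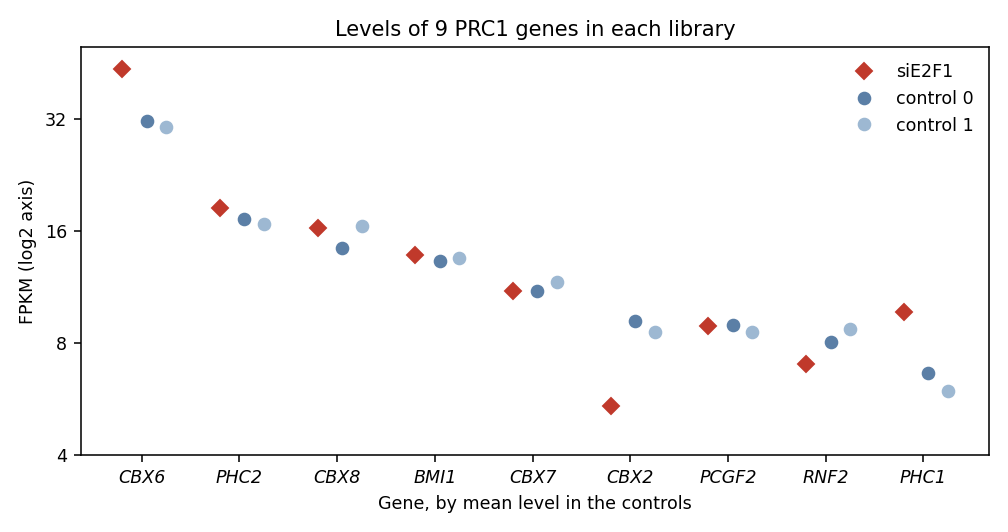
Level in FPKM (log2 axis) of each of the 9 PRC1 genes in the siE2F1 library (diamonds) and in control 0 and control 1 (circles), with the genes ordered by their mean in the controls. CBX2 sits at 5.42 FPKM in siE2F1, below 9.18 and 8.60 FPKM in the controls, and PHC1 at 9.70 FPKM, above 6.67 and 5.96 FPKM.

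Since FPKM is scaled by length, the genes can be ranked within a library. In the controls the order was CBX6, PHC2, CBX8, BMI1, CBX7, CBX2, PCGF2, RNF2 and PHC1. The control values of CBX2 and PCGF2 overlapped, as did those of PCGF2 and RNF2, and the remaining neighbours in this order did not overlap. CBX6 at the top had a mean of 31.2 FPKM ± 0.813 (SD, n = 2) in the controls, and PHC1 at the bottom had 6.32 FPKM ± 0.503 (SD, n = 2). In the siE2F1 library CBX2 ranked 9 of 9, against 6 in the controls, and PHC1 ranked 6, against 9 in the controls. The first 5 places and those of PCGF2 (7) and RNF2 (8) were the same in both.

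CBX2 has a chromodomain that reads the PRC2 mark and a region that compacts nucleosomes. It was at 5.42 FPKM in the siE2F1 library, against 9.18 FPKM in control 0 and 8.60 FPKM in control 1. Its level was thus below both controls, and its distance to the nearer control was 6.88 times the gap between the controls. The log2 fold change was -0.62, with 0.0742 as its standard error (limma, adjusted p = 0.111 in the fit of all genes, 0.0368 without small RNA genes), or 1.54-fold lower, the farthest from 0 among the 9 genes. Of all genes tested, 4.33% had a lower fold change. In RNA from a whole culture, fewer cells with the transcript and less of it per cell cannot be told apart.

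CBX6, another chromodomain paralog and the most abundant of the 9, stood at 43.7 FPKM in the siE2F1 library, against 31.7 and 30.6 FPKM in control 0 and control 1. The groups did not overlap, and the distance to the nearer control was 8.68 times the control gap. Its log2 fold change was 0.47, with 0.0657 as its standard error (limma, adjusted p = 0.111, 0.0409 without small RNA genes), or 1.39-fold higher. CBX6 and CBX2 thus lay on opposite sides of the controls: the ratio of CBX6 to CBX2 in FPKM was 8.05 in siE2F1, against 3.46 and 3.56 in the controls.

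CBX7 and CBX8 also carry chromodomains, and CBX7 is known as a repressor of the INK4 locus. CBX7 was at 11.1 FPKM in siE2F1, against 11.04 and 11.69 FPKM in the controls. CBX8 was at 16.3 FPKM in siE2F1, against 14.5 and 16.5 FPKM in the controls. For both genes the siE2F1 value lay between the controls (log2 fold changes -0.03 and 0.07, limma adjusted p = 0.785 and 0.702). CBX8 had the widest gap between the controls among the 9, at 0.18 log2 units, so no difference smaller than that can be read. In RefSeq's gene order on chromosome 17, CBX2 and CBX8 follow each other with no other coding gene between them, and CBX8 was not below both controls as CBX2 was.

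**Figure D2:**
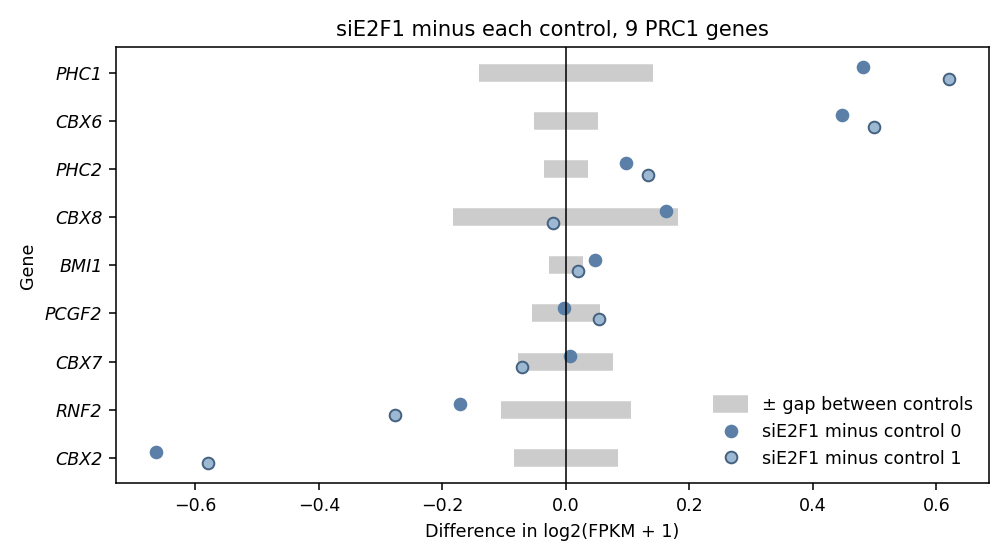
Difference in log2(FPKM + 1) between the siE2F1 library and control 0 (dark circles) or control 1 (light circles) for each of the 9 genes, with the gap between the controls drawn on both sides of 0 as a grey bar. CBX2 and RNF2 lie left of their bars and PHC1, CBX6 and PHC2 to the right, while CBX7, CBX8 and PCGF2 have a control on each side.

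RNF2 (RING1B) is the ubiquitin ligase of the complex. It was at 7.04 FPKM in the siE2F1 library, against 8.05 and 8.73 FPKM in the controls. The value was below both controls, by 1.62 times the gap between them to the nearer one. The log2 fold change was -0.22, with 0.0813 as its standard error, and limma did not call it (adjusted p = 0.218, 0.166 without small RNA genes). Its paralog RING1 was not analysed here.

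BMI1 (PCGF4) and PCGF2 (MEL18) are alternative partners that bind the ligase and raise its activity. BMI1 was at 13.8 FPKM in siE2F1, against 13.3 and 13.6 FPKM in the controls. PCGF2 was at 8.92 FPKM in siE2F1, against 8.94 and 8.56 FPKM in the controls. Neither was separated from the controls by more than the gap between them (log2 fold changes 0.03 and 0.03, limma adjusted p = 0.744 and 0.820), and BMI1 was 1.55 times PCGF2 in siE2F1, against 1.49 and 1.59 times in the controls.

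The BMI1 value can depend on how reads were shared at its locus. COMMD3-BMI1, a readthrough gene that joins COMMD3 to BMI1, covers 1000 of the 4283 exonic bases of BMI1 in GENCODE v29 (23.3%). The annotation behind these FPKM values is not known and may give another overlap. The kit does not mark strand, but genes joined by a readthrough share one, so strand could not separate them. COMMD3-BMI1 was at 7.16 FPKM in siE2F1, against 10.5 and 11.6 FPKM in the controls (log2 fold change -0.57, limma adjusted p = 0.116, 0.0424 without small RNA genes). Its ratio to BMI1 was 0.519 in siE2F1, against 0.791 and 0.856 in the controls. BMI1 and COMMD3-BMI1 together summed to 21.0 FPKM in siE2F1, against 23.9 and 25.3 FPKM in the controls, so the sum lay below both controls while BMI1 alone did not. COMMD3, the other gene that the readthrough joins, was at 43.1 FPKM in siE2F1, against 34.3 and 38.6 FPKM in the controls.

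PHC1 and PHC2 polymerize through SAM domains and so link PRC1 complexes. PHC1 was at 9.70 FPKM in the siE2F1 library, against 6.67 and 5.96 FPKM in the controls. It was above both, by 3.42 times the control gap to the nearer one, with a log2 fold change of 0.55 and 0.0951 as its standard error (limma, adjusted p = 0.121, 0.0458 without small RNA genes), or 1.46-fold higher. PHC2 was at 18.5 FPKM in siE2F1, against 17.2 and 16.8 FPKM in the controls, also above both. Its log2 fold change of 0.12 was smaller (standard error 0.0619, limma adjusted p = 0.327). The paralogs were closer in level in siE2F1: PHC2 was 1.91 times PHC1 in siE2F1, against 2.58 and 2.82 times in the controls.

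By the size of these distances, 2 of the 9 genes (CBX2 and RNF2) lay farther below the nearer control than the controls lie from each other, where 29.1% of all genes tested did. A further 3 (CBX6, PHC1 and PHC2) lay that far above, where the share was 30.4%. This rule was chosen after the members' values were seen. None of the 9 lay 2-fold beyond both controls, where 1.58% of all genes tested did.

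Summed over the 9 genes, PRC1 transcripts came to 134.4 FPKM in siE2F1, against 120.6 and 121.1 FPKM in the controls, and CBX6 alone made up 32.5% of the sum in siE2F1, against 26.3% and 25.3%. These 4 CBX genes, which are not all of their family, summed to 76.5 FPKM in siE2F1, against 66.4 and 67.4 FPKM in the controls. Within that sum CBX6 took 57.1% in siE2F1, against 47.8% and 45.4% in the controls. CBX2 took 7.09% in siE2F1, against 13.8% and 12.8% in the controls. The shares of CBX7 and CBX8 were 14.5% and 21.3% in siE2F1, both below their shares in the controls (16.6% and 17.3% for CBX7, 21.8% and 24.5% for CBX8), as a larger CBX6 share requires of some of its paralogs.

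The PHC slot had a higher sum in siE2F1. PHC3, picked from a list of 29 other PRC1 subunits once its values were known, was at 8.37 FPKM in siE2F1, against 5.86 and 5.71 FPKM in the controls (log2 fold change 0.46, limma adjusted p = 0.111, 0.0432 without small RNA genes). All 3 PHC genes were above both controls, where 43.7% of all genes tested were, and together they summed to 36.6 FPKM in siE2F1, against 29.8 and 28.5 FPKM in the controls. PHC2 took 50.6% of that sum in siE2F1, against 57.9% and 59.0%. These shares are per library and have no test.

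**Figure D3:**
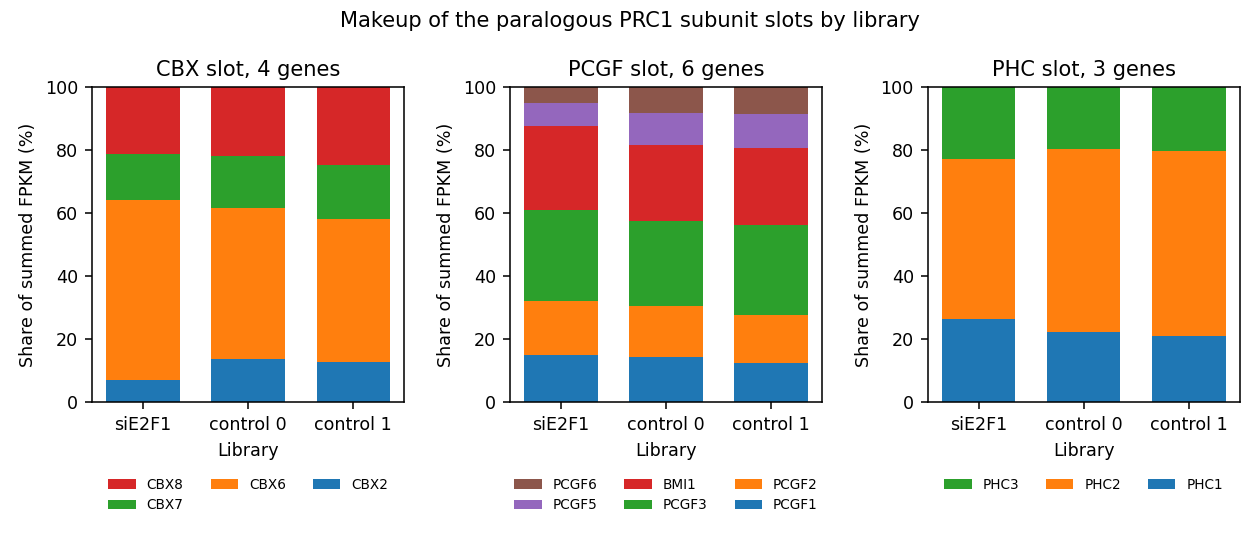
Share of the summed FPKM of each paralog group taken by each gene, as stacked bars in percent, in siE2F1, control 0 and control 1, for the CBX, PCGF and PHC slots. In siE2F1 the band of CBX6 is wider (57.1%) and that of CBX2 narrower (7.09%) than in both controls, as are those of PCGF5 and PCGF6 within the PCGF slot.

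Of the 29 other PRC1 subunits, 27 were listed and 26 were tested. None was called in either direction by limma in the fit of all genes, with 7 at an unadjusted p under 0.05 (5 lower, 2 higher), where 28.4% of all genes tested were. Without small RNA genes 2 were called lower and 2 higher, where 6.36% and 4.17% of genes were. In siE2F1, 10 were below both controls and 7 above, beside 39.7% and 43.7% of all genes tested, with a median log2 fold change of -0.01. PCGF6 and PCGF5, which replace BMI1 or PCGF2 in noncanonical PRC1, lay farthest out. PCGF6 was at 2.57 FPKM in siE2F1, against 4.43 and 4.83 FPKM in the controls (log2 fold change -0.66, limma adjusted p = 0.111, 0.0384 without small RNA genes). PCGF5 was at 3.73 FPKM in siE2F1, against 5.61 and 6.06 FPKM in the controls (log2 fold change -0.53, limma adjusted p = 0.112, 0.0434 without small RNA genes). Over the 6 PCGF genes the sum was 51.7 FPKM in siE2F1, against 55.3 and 56.2 FPKM in the controls, and PCGF6 took 4.98% of it, against 8.02% and 8.60%.

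PCGF6 acts in a complex with E2F6, a repressive member of the E2F family, and MGA, a MAX partner. These were named after their values were seen. E2F6 was at 9.26 FPKM in siE2F1, against 12.2 and 11.3 FPKM in the controls (log2 fold change -0.32, limma adjusted p = 0.154). MGA was at 8.56 FPKM in siE2F1, against 7.51 and 7.24 FPKM in the controls (log2 fold change 0.19, limma adjusted p = 0.202). E2F6 thus lay below both controls and MGA above both, where 39.7% and 43.7% of all genes tested did. Other partners are not given here, so nothing is drawn about the complex as a whole.

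PRC2, which lays down the mark that CBX proteins read, had 11 of 13 listed subunits tested, with 6 below both controls and 4 above, where 39.7% and 43.7% of all genes tested were, and a median log2 fold change of -0.11. Its catalytic subunit EZH2 was at 10.9 FPKM in siE2F1, against 15.3 and 15.0 FPKM in the controls. The accessory subunit PHF19 was at 3.71 FPKM in siE2F1, against 5.58 and 6.29 FPKM in the controls. Their log2 fold changes were -0.44 and -0.55 (limma adjusted p = 0.111 and 0.123). None of the 11 was called by limma in either direction in the fit of all genes, with 3 at an unadjusted p under 0.05, where 28.4% of all genes tested were, and 2 were called lower without small RNA genes, where 6.36% of genes were. A difference between PRC1 and PRC2 was not tested.

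**Figure D4:**
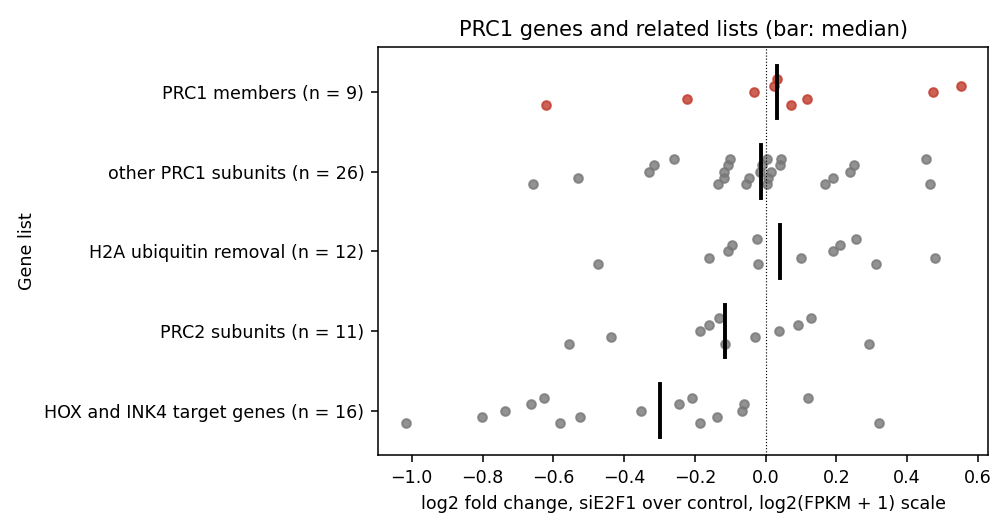
log2 fold change of siE2F1 over control on the log2(FPKM + 1) scale for each tested gene of PRC1 (red) and of 4 related lists (grey), with the list median as a black bar. The PRC1 genes spread on both sides of 0 around a median of 0.03, and the HOX and INK4 list has a median of -0.30.

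The known targets of PRC1 were read from a list of 41 HOX and INK4 genes, of which 26 were listed and 16 tested. In siE2F1, 14 of the 16 were below both controls, where 39.7% of all genes tested were, and 2 were above. The 14 below were the 14 HOX genes tested, with a median log2 fold change of -0.44, and the 2 above were the INK4 genes. Limma called 0 of the 16 in the fit of all genes, with 11 at an unadjusted p under 0.05 (10 lower, 1 higher), where 28.4% of all genes tested were. Without small RNA genes 6 were called lower, where 6.36% of genes were. The filter on the mean admits genes through their higher group, so the 10 listed genes that were not tested count too: each was at or below 1.31 FPKM in every library, with 8 below both controls, 1 above and 1 between.

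HOXB9, a homeobox factor of body patterning, was at 0.713 FPKM in siE2F1, against 2.65 and 2.30 FPKM in the controls (log2 fold change -1.02, limma adjusted p = 0.111, 0.0350 without small RNA genes). HOXA5 was at 3.29 FPKM in siE2F1, against 6.68 and 6.25 FPKM in the controls (log2 fold change -0.80, limma adjusted p = 0.111, 0.0325 without small RNA genes). Both were below the controls with no overlap. HOXB13, the HOX factor of prostate lineage and the most abundant of the list, was at 94.6 FPKM in siE2F1, against 122.9 and 118.9 FPKM in the controls (log2 fold change -0.35, limma adjusted p = 0.127), and is named after its values were seen.

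CDKN2A, which encodes p16 and ARF, was at 4.83 FPKM in siE2F1, against 4.09 and 4.66 FPKM in the controls (log2 fold change 0.12, limma adjusted p = 0.4998). CDKN2B, which encodes p15, was at 1.47 FPKM in siE2F1, against 0.939 and 1.01 FPKM in the controls (log2 fold change 0.32, limma adjusted p = 0.174). Both were above the controls, and both are named after their values were seen. Whether the levels of PRC1 genes bear on those of the HOX or INK4 genes was not tested.

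**Figure D5:**
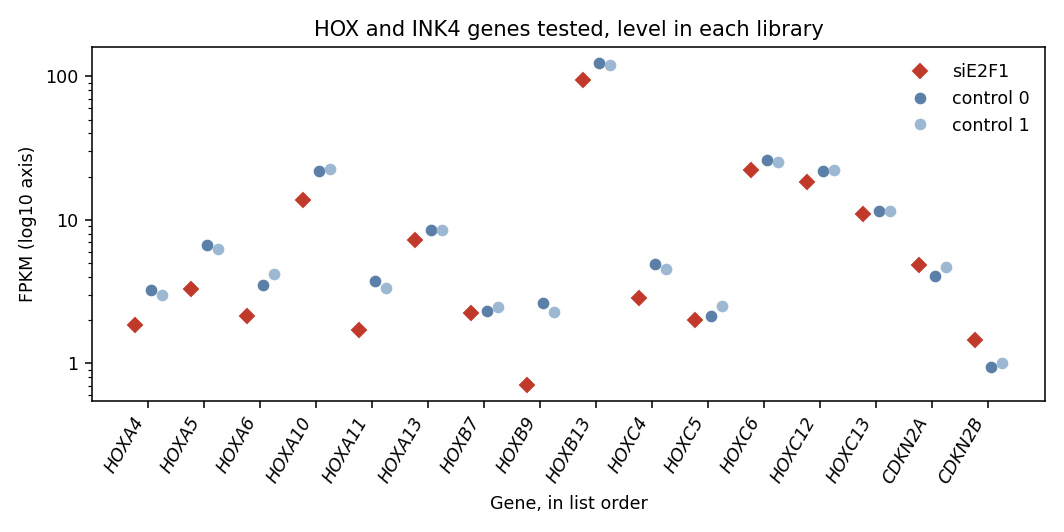
Level in FPKM (log10 axis) of the 16 tested HOX and INK4 genes in siE2F1 (diamonds), control 0 and control 1 (circles). The siE2F1 diamond lies below both circles for the 14 HOX genes and above both for CDKN2A and CDKN2B.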

How the data were processed

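RNA sequencing libraries (TruSeq RNA kit, per the labels' protocols) were 1 from siE2F1 and 2 from control cells, grouped by sample title. TopHat2 2.0.4, Cufflinks 2.0.2 and build hg19 appear in the submitters' processing notes. The sources used here give neither annotation nor parameters. Values are log2 FPKM per gene, as the authors deposited them. The lowest deposited log2 value equals 0.1 FPKM, which was subtracted after back-conversion. Sorted values differ between libraries by at most 0.0653 log2 units, a pattern of quantile normalization that no source states, so a shift common to most genes would be hidden. Depth is unknown.

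Genes averaging 1 FPKM or more over the 3 libraries were tested as log2(FPKM + 1), which understates changes of low genes, with limma 3.58.1 in R 4.3.3 (mean-variance trend, two-sided, Benjamini-Hochberg over all genes tested, threshold 0.05). The spread comes from the controls alone, with 1 residual degree of freedom, and prior degrees of freedom were 1.69 (3.19 without small RNA genes). Of 473 small RNA genes 45.7% lay 2-fold apart between the controls, against 0.337% of other genes. The fit was tested on simulated data with planted changes of 2-fold or more, of which it recovered few with all genes. PRC1 genes and all lists were chosen with earlier results of these data known. Named genes were E2F1, all 9 PRC1 genes, the genes that share a locus with BMI1, and from each related list up to 4 called members or, with none called, the 2 farthest outside both controls. A few listed genes are not reported by name. Alternatives varied the pseudocount, filter, scaling, back-conversion, trend, small RNA genes and controls.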

Additional observations from a re-analysis of the deposited data

How the results depend on the processing

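Over the 8 alternatives with a test the 9 PRC1 genes gave 72 fold changes, of which 69 kept their direction and their side of the threshold. Without small RNA genes 1 member was called lower (CBX2) and 2 higher (CBX6 and PHC1), while 886 genes were called lower and 581 higher over all genes. The other 7 alternatives with a test called 0 members. The adjusted p ranged from 0.0368 to 0.188 for CBX2, from 0.0409 to 0.188 for CBX6 and from 0.0458 to 0.195 for PHC1. A pseudocount of 0.1 left 7 genes called higher, a minimum of 5 FPKM left 26, and no filter on mean FPKM left 0 higher and 0 lower of 21691 genes by limma, with 4862 at an unadjusted p under 0.05; the cause was not tested. The E2F1 call was lost under 2 of these settings, at an adjusted p of 0.0601 with the smaller pseudocount and 0.159 without a filter.

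Leaving out each control in turn gave 18 values with no test, of which 15 kept their direction. The 3 genes that lie between the controls then changed sign: CBX7 ran from -0.0707 to 0.0061, CBX8 from -0.0202 to 0.162 and PCGF2 from -0.00276 to 0.0528. Members below both controls, or below the control kept, numbered 3 to 4. A common median moved no library (shift 0), and neither that nor quantile normalization changed the counts of members or HOX genes beyond the controls.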

Other observations

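Ubiquitin on histone H2A is removed by enzymes such as BAP1, which works with ASXL proteins. Of 13 genes, 12 were listed and tested, with 3 below both controls in siE2F1 and 6 above, where 39.7% and 43.7% of all genes tested were, and a median log2 fold change of 0.04. BAP1 was at 16.3 FPKM in siE2F1, against 22.9 and 23.1 FPKM in the controls (log2 fold change -0.47, limma adjusted p = 0.111, 0.0403 without small RNA genes). MBD5, a BAP1 complex partner, was at 4.70 FPKM in siE2F1, against 3.39 and 2.82 FPKM in the controls (log2 fold change 0.48, limma adjusted p = 0.159). Limma called 0 of the 12 over all genes tested, with 4 at an unadjusted p under 0.05, where 28.4% of all genes tested were. Without small RNA genes BAP1 was the 1 gene called, on the lower side, where 6.36% of genes were called.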
